A study of Mus musculus with 17 samples.

Results

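Libraries of 4 YAP-M mouse brain tumours were compared with 3 SVZ libraries by RNA-seq, across every gene that passed a filter on low counts. These are 7 of the 17 samples of a series on fusion proteins of YAP and the forebrain tumour supratentorial ependymoma, and they were chosen by sample title, with no measured value in the rule. Per the labels, the tumours arose after in utero electroporation, the delivery of DNA into the embryonic mouse brain by electric pulses, with a construct called YAP-M. The partner that M stands for, the promoter of the construct, its species, the strain and the age at collection are not stated in the labels. The SVZ libraries carry the treatment label wild-type, and SVZ is the usual abbreviation of the subventricular zone, the layer that lines the lateral ventricles. Their tissue label also reads brain tumor, while the extraction protocol names normal brain. Nothing in the labels says that the replicates came from separate animals, so p-values measure the spread between these libraries, which may be in part technical. The 3 YAP-M-dIDR libraries, labelled both as tumour tissue and as neural progenitors that overexpress YAP-MΔIDR, and the 2 NSC-YAP libraries of neural progenitors that overexpress YAP entered the fit to estimate the spread. The 5 chromatin binding samples of the series were not analysed here.

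YAP is a transcriptional coactivator. The Hippo kinases phosphorylate it and keep it out of the nucleus, and once in the nucleus it binds DNA through the TEAD transcription factors. Its known target genes encode secreted matrix proteins, cytoskeletal proteins and several inhibitors of the Hippo pathway itself. In supratentorial ependymoma YAP1 is recurrently joined to other genes, among them MAMLD1.

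Total counts were 20784130 to 24606778 per tumour library and 24340413 to 24762671 per SVZ library. Levels are given as CPM, the count scaled to the same library size in every sample, in the order of replicates 1 to 4 for the tumours and 1 to 3 for SVZ. Transcripts of the mitochondrial genome held 4.91% to 6.50% of all counts per tumour and 12.7% to 17.0% per SVZ library. Genes set to check the labels gave the following means. Dcx, a neuroblast gene, stood at 38.6 CPM in SVZ, Gfap at 265 CPM and Foxj1, the ciliated cell factor, at 22.6 CPM. The SVZ libraries also held Drd1 and Drd2, the dopamine receptors of striatal neurons, at 79.3 and 76.5 CPM, and Ttr of the choroid plexus at 907, 2254 and 2106 CPM. Transcripts of striatal neurons and choroid plexus were thus present in the SVZ libraries beside those of the germinal layer.

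Of 18329 genes tested, 4722 (25.8%) were higher in the tumours and 5296 (28.9%) were lower, with an adjusted p under 0.05 and at least a 2-fold change. Those shares are the background for counts over all tested members of a list. A gene close to 0 in SVZ entered the test only if it was high elsewhere, so counts are also given for the members that passed the filter within the SVZ libraries. The share over all genes that passed in that way is not given, so these restricted counts have no matching background. Such a count is 1 lower for the rises of the YAP/TEAD target, matricellular, integrin and laminin, FGF axis, Wnt, p53, ATF4, glycolysis and Polycomb lists. The same limit holds for the falls of genes close to 0 in the tumours. For these the number of members that passed the filter within the tumours is given where it was well below the number tested. How many of those members fell was not counted. The called-higher genes took 38.9% to 42.3% of the non-mitochondrial counts in the tumours and 8.46% to 8.60% in SVZ. The called-lower genes took 10.9% to 14.8% in the tumours and 51.0% to 52.6% in SVZ. By the fitted values 643 genes rose and 113 fell by at least 5 on the log2 scale. Among the 643 are genes with 0 or a few counts in SVZ, whose fitted fold change depends on the prior count. The 2 numbers therefore do not compare measured folds. Scaling by total counts alone moved the median log2 fold change of all genes from -0.04 to 0.30 and the share of higher genes among those called from 47.1% to 57.7%. In 80.8% of the genes tested the libraries of the groups did not overlap, so a lack of overlap alone marks little in this comparison.

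**Figure D1:**
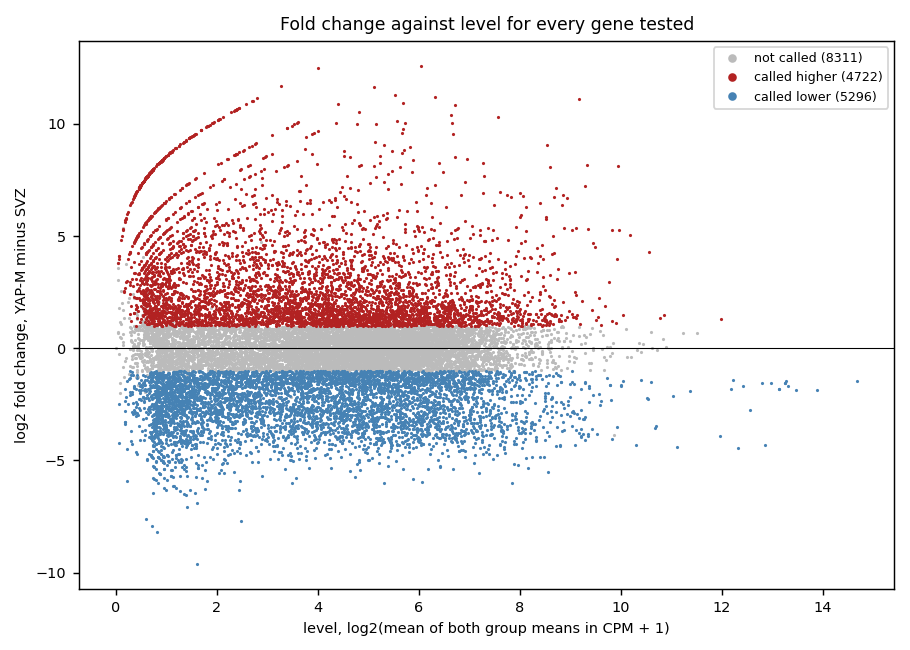
Each point is 1 of 18329 genes, with its level on the x axis as log2 of the mean of both group means in CPM plus 1 and its log2 fold change (YAP-M minus SVZ) on the y axis. Red points (4722) were called higher and blue points (5296) lower, and the points above a log2 fold change of 5 outnumber those under -5. The curved rows of points at the upper left are genes with 0 or a few counts in SVZ, whose fitted fold change depends on the prior count.

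The largest gains in read share were spread over a few kinds of gene. Igf2, a fetal growth factor, stood at 3339.6, 3152, 2142 and 2825 CPM in the tumours and 103, 166 and 163 CPM in SVZ (log2 fold change 4.31 ± 0.28, SE). Peg10, an imprinted gene derived from a retrotransposon and needed in the placenta, stood at 2324, 2424, 2598 and 1706 CPM in the tumours and 54.9, 63 and 86.3 CPM in SVZ (5.06 ± 0.30). Every tumour library lay more than 10-fold above every SVZ library for both genes. The fibronectin gene Fn1 stood at 2095, 2492, 1596 and 1564 CPM in the tumours and 45.5, 42.3 and 61.2 CPM in SVZ (5.28 ± 0.22), and Vim, the intermediate filament of mesenchymal and radial glial cells, at 1698, 1881, 1519.8 and 2005 CPM in the tumours and 45.7, 47.2 and 46.3 CPM in SVZ (5.26 ± 0.17). Cryab, a small heat shock protein of stressed glia and muscle, stood at 1829, 2233, 1309 and 1987 CPM in the tumours and 105, 128 and 113 CPM in SVZ (3.99 ± 0.34). These groups did not overlap. Eef1a1, Actb and Actg1, which serve translation and the cytoskeleton in most cells, were called higher as well, at log2 fold changes of 1.33 ± 0.13, 1.51 ± 0.10 and 1.34 ± 0.15 (SE). Apart from mitochondrially encoded transcripts, their nuclear copies and Ttr, the largest losses included the myelin genes Mbp, Mobp and Cnp, Meg3, Cpe, Kif5a and Camk2a of neurons, the glial glutamate transporter Slc1a2, Sparcl1 and the lipid desaturase Scd2. The log2 fold changes of these genes ran from -4.41 ± 0.77 for Mobp to -2.13 ± 0.19 for Cpe (SE).

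**Figure D2:**
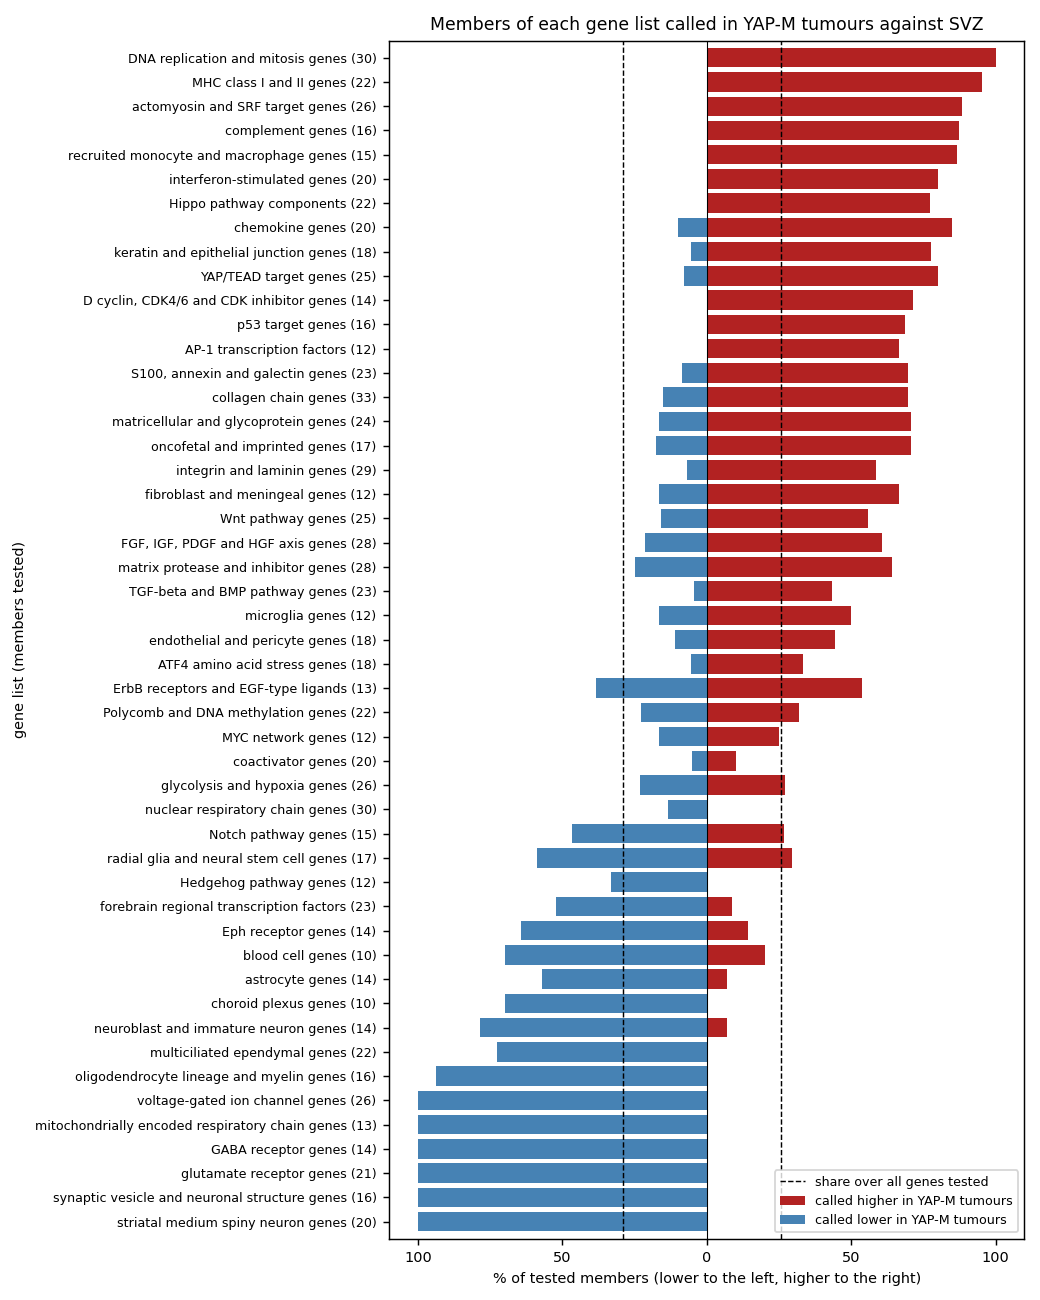
Bars give the percentage of tested members of each gene list that were called higher (red, to the right) or lower (blue, to the left), with the number tested in parentheses and the shares over all 18329 genes (25.8% and 28.9%) as dashed lines. Lists of neuronal genes reach 100% to the left and DNA replication and mitosis genes 100% to the right. In some lists members entered the test through the tumours alone, and the Hox genes are left out for that reason.

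Yap1 itself and the Hippo pathway were higher in the tumours. Yap1 (ENSMUSG00000053110, chromosome 9, 7931999 to 8004596, minus strand, mm10) stood at 92.9, 105, 98.2 and 92.7 CPM in the tumours and 21.5, 25.3 and 27.9 CPM in SVZ, and the groups did not overlap (log2 fold change 1.97 ± 0.47 (SE), adjusted p = 0.00247, p = 0.0286 by an exact permutation test, 2-sided, which is the lowest value possible with 35 splits). The share of these reads that came from the construct cannot be read from the counts. The SE and adjusted p of Yap1 use the spread within all groups of the fit, among them YAP-M-dIDR, whose libraries differed widely in Yap1. All 17 called of 22 Hippo pathway components tested were higher, with a median log2 fold change of 2.21 against -0.04 over all genes. Of the 20 that passed the filter within the SVZ libraries, 15 rose. This list shares members with the YAP/TEAD targets below, Amotl1 among them, and Lats2 is also such a target. The counts of these lists are therefore not separate results. The DNA-binding partners rose together. Tead1 stood at 559, 542, 491 and 447 CPM in the tumours and 27.5, 32.8 and 34.4 CPM in SVZ (log2 fold change 4.01 ± 0.20 (SE)), Tead2 at means of 56 against 5.68 CPM (3.30 ± 0.25), Tead3 at 28.3 against 3.41 CPM (3.05 ± 0.15) and Tead4 at 52.8 against 0.390 CPM (7.07 ± 0.46). Vgll3, a cofactor that binds TEADs in the place of YAP, was close to absent in SVZ, with 305, 341, 297 and 279 CPM in the tumours and 1.38, 0.539 and 1.03 CPM in SVZ (log2 fold change 8.28 ± 0.26 (SE)). The YAP paralogue Wwtr1 (TAZ) also rose, with 163, 149.6, 126 and 171 CPM in the tumours and 36.2, 39.3 and 44.8 CPM in SVZ (log2 fold change 1.93 ± 0.12 (SE)). The inhibitory arm rose in the same samples. Amot, which tethers YAP outside the nucleus, stood at 932, 847, 706 and 525 CPM in the tumours and 38, 39 and 46.1 CPM in SVZ (log2 fold change 4.20 ± 0.23 (SE)), the kinase gene Stk4 at means of 207 against 47.2 CPM and Lats2, the kinase that phosphorylates YAP, at 184 against 19.6 CPM. Nf2, Taok1, Lats1, Amotl1 and Mob1b were not called, and of these Nf2 lay just under the 2-fold threshold (log2 fold change 0.93 ± 0.12 (SE)) and passed it in 11 of 18 alternative analyses. Mamld1, the partner gene known from human tumours, had reads in both groups, with 35.3, 42.8, 28.4 and 32.1 CPM in the tumours and 21, 23 and 22.6 CPM in SVZ. Its groups did not overlap, but the change was under 2-fold (log2 fold change 0.64 ± 0.15 (SE), adjusted p = 0.00241).

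The known YAP/TEAD targets were higher in the tumours in 20 of 25 cases and lower in 2 (Arhgef17 and Fjx1), with a median log2 fold change of 2.61. Ankrd1 (ENSMUSG00000024803, chromosome 19, 36111965 to 36119844, minus strand), a muscle and stress response cofactor, stood at 1269, 1097, 1250.2 and 961 CPM in the tumours and 0.230, 0.0899 and 1.27 CPM in SVZ (log2 fold change 11.10 ± 0.64 (SE), adjusted p = 7.92e-08). Ccn1 (Cyr61 in the files) and Ccn2 (Ctgf), secreted matrix-associated regulators, stood at 1049.8, 942, 1032 and 819 and at 899, 881, 998 and 804 CPM in the tumours. In SVZ they stood at 7.65, 9.08 and 10.8 and at 9.95, 10.8 and 11.3 CPM (6.71 ± 0.17 and 6.39 ± 0.27). All 3 genes were high in each tumour library and lowest in replicate 4. Amotl2, an inhibitor of YAP and its target, stood at 814, 818, 739.8 and 773 CPM in the tumours and 20.5, 26.3 and 26 CPM in SVZ (log2 fold change 5.02 ± 0.15 (SE)). Axl, a receptor tyrosine kinase, stood at 423, 415, 357 and 420.1 CPM in the tumours and 63.8, 64.3 and 69.9 CPM in SVZ (log2 fold change 2.61 ± 0.10 (SE)), and the LIM protein gene Ajuba at means of 122 against 3.26 CPM. The tumours differed from each other by less than 1.5-fold for Amotl2 and Axl. Amotl1, Rbms3 and Foxf2 were not called, and the levels of Amotl1 overlapped, with 76.1, 92.8, 55.9 and 101 CPM in the tumours and 85.3, 99.9 and 82.1 CPM in SVZ.

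The promoters of 4 of these genes are shown because the core of the TEAD site, GGAATG on either strand (CATTCC on the other), lies within 250 bases before their start. Capitals mark these letters. They are RefSeq promoters of build GRCm38.p6, 5′ to 3′ on the strand of the gene: Ankrd1 (chr19:36119845-36120094, minus strand), Amotl2 (chr9:102717554-102717803, plus strand), Ajuba (chr14:54577662-54577911, minus strand) and Axl (chr7:25788734-25788983, minus strand).
Ankrd1: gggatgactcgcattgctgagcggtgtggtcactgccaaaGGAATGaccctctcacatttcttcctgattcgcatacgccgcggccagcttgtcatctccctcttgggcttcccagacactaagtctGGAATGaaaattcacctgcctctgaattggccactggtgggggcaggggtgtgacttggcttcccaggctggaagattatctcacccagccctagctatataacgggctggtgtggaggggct
Amotl2: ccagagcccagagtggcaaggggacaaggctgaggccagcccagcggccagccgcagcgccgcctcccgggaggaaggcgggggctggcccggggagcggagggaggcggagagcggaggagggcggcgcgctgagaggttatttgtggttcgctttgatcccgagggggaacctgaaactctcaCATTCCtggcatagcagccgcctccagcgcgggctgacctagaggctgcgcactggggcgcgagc
Ajuba: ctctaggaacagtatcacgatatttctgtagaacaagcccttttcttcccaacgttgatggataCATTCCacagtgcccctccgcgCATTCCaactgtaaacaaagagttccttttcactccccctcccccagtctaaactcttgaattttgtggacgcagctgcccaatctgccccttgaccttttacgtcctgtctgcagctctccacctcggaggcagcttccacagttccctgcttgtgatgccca
Axl: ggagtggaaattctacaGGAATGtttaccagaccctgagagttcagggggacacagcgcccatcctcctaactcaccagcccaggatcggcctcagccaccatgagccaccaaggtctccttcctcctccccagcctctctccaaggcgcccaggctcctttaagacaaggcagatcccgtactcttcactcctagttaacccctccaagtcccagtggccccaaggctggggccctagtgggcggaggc
The matches begin 210 and 123 bases before the start in Ankrd1, 65 in Amotl2, 186 and 164 in Ajuba and 233 in Axl. Over the 300-base window that also holds the 50 bases after the start, 14.7% of all 32851 promoters in the table held the motif. A promoter was found for 17 of the 25 target genes and for 2940 of the 4722 genes called higher, under 80% of either set, so a comparison of motif shares between sets was void. Of those 17 target genes, 7 held the motif in the 300-base window and the others, Amotl1, Rbms3 and Foxf2 among them, did not. The 4 shown were picked from the 7 and do not stand for the targets as a set. A match describes letters and does not show that TEAD binds there. Ccn1 and Ccn2 have no entry in the promoter table.

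**Figure D3:**
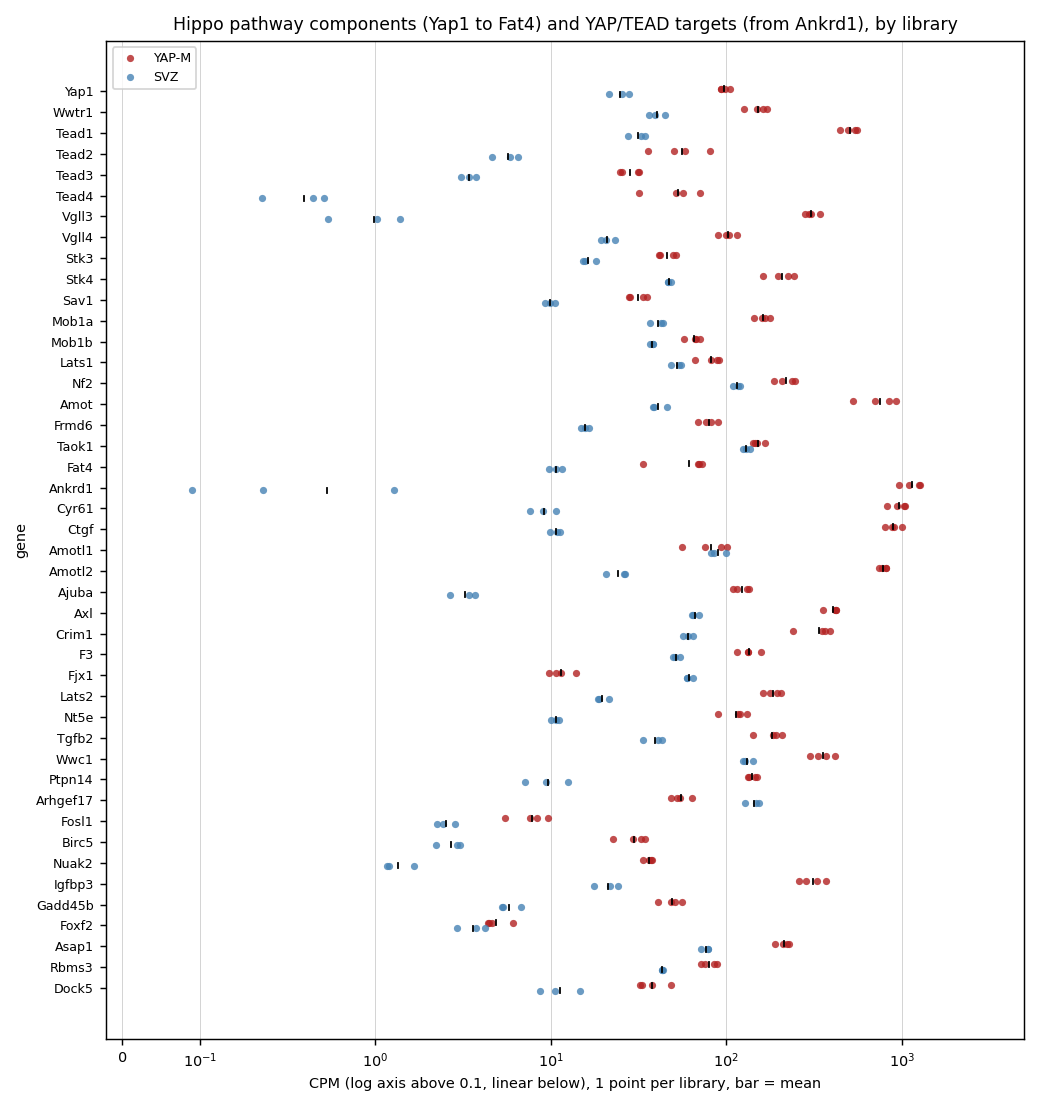
Points give the CPM of each library on a log axis (linear under 0.1) for every Hippo pathway component and YAP/TEAD target, red for the 4 tumours and blue for the 3 SVZ libraries, with bars at the means. Red and blue points are apart for most genes and overlap for Amotl1. Ankrd1, Tead4 and Vgll3 lie near 1 CPM or less in SVZ.

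AP-1 factors, which often occupy enhancers together with TEADs, rose in 8 of 12 cases, and none was called lower. Of the 9 that passed the filter within the SVZ libraries, 6 rose. Fosl2 stood at 203, 197, 145 and 140.4 CPM in the tumours and 21.3, 24.2 and 20.5 CPM in SVZ (log2 fold change 2.96 ± 0.16 (SE)), Fos at means of 120.2 against 16.5 CPM, Junb at 109.9 against 36.9 CPM, Mafk at 72.6 against 8.96 CPM and Maff at 66.4 against 1.63 CPM. Jun, Fosb and Batf3 were not called. Jund, which is present in most resting cells, stood at 84.3, 96.2, 107 and 98.3 CPM in the tumours and 179, 143 and 171 CPM in SVZ, and its lower level missed the 2-fold threshold (log2 fold change -0.77 ± 0.20 (SE)).

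Contractile and cytoskeletal genes were higher almost throughout. Of 26 actomyosin genes and targets of serum response factor, 23 were called higher and none lower, with a median log2 fold change of 3.38, and the sum of the list was 11235 to 12813 CPM in the tumours and 1338 to 1356 CPM in SVZ. Of the 23 that passed the filter within the SVZ libraries, 20 rose. Acta2, smooth muscle actin, stood at 1922, 2057, 1541 and 2277 CPM in the tumours and 7.14, 5.53 and 8.55 CPM in SVZ (log2 fold change 8.11 ± 0.55 (SE)). Cald1, which binds actin and tropomyosin, stood at 1364, 1347, 1333 and 1311 CPM in the tumours and 46.7, 54.7 and 53 CPM in SVZ (log2 fold change 4.70 ± 0.14 (SE)), and Tpm1, a tropomyosin, at 1618, 1522, 1407 and 1589 CPM in the tumours and 204, 195 and 189 CPM in SVZ (log2 fold change 2.97 ± 0.10 (SE)). Cald1 and Tpm1 varied by less than 1.2-fold among the tumours, and Acta2 by less than 1.5-fold. The non-muscle myosin heavy chain Myh9 rose, with means of 789.9 against 67.4 CPM, whereas the related Myh10 was not called (163 against 214 CPM). Tpm4 stood at 779 against 41.4 CPM. Pericytes and smooth muscle cells also express Acta2. Of the pericyte markers, Pdgfrb rose, with 71.9, 56.2, 56.4 and 54.4 CPM in the tumours and 26.8, 30.3 and 32.2 CPM in SVZ (log2 fold change 1.00 ± 0.17 (SE)), at the threshold, and was not called without tumour replicate 1 or without SVZ replicate 1 (1.00 and 0.98). Rgs5 was lower, with 100.04, 68.1, 68 and 63.4 CPM in the tumours and 153, 159 and 200.02 CPM in SVZ (log2 fold change -1.19 ± 0.21 (SE)), and Kcnj8 and Abcc9 were not called. The endothelial and pericyte genes summed to 903 to 1204 CPM in the tumours and 587 to 711 CPM in SVZ, with 8 of 18 higher and 2 lower. The part of mural cells in the contractile genes was not tested.

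Matrix genes rose broadly but by type. Of 33 collagen chains 23 were called higher and 5 lower (median 2.32). The fibrillar chain Col5a2 stood at 1296, 1388, 886 and 1372 CPM in the tumours and 6.86, 8.59 and 9.38 CPM in SVZ (log2 fold change 7.22 ± 0.24 (SE)). The fibril-associated chain Col12a1 stood at 1081, 1048, 511 and 1036 CPM in the tumours and 7.32, 8.14 and 8.41 CPM in SVZ (log2 fold change 6.85 ± 0.45 (SE)), and Col11a1 at 730.4, 859.5, 334 and 934 CPM in the tumours and 12.4, 11.1 and 14 CPM in SVZ (log2 fold change 5.84 ± 0.41 (SE)). For each of these chains replicate 3 was the lowest tumour, and it still lay far above SVZ. The basement membrane chains Col4a1 and Col4a2 stood at means of 919 against 90.9 CPM and 632 against 68.8 CPM. The chains called lower were Col25a1, Col9a2, Col9a3, Col11a2 and Col27a1, with Col25a1, a transmembrane collagen of neurons, at 16.1 against 69.5 CPM and Col9a3 at 10.1 against 56.4 CPM. The summed fibroblast and meningeal genes, which share Col1a1, Col1a2 and Col3a1 with the collagen list, were 1411, 1438, 535 and 1673 CPM in the tumours and 337, 419.6 and 386 CPM in SVZ. Replicate 3 was the lowest tumour there as well. The part of fibroblasts in the collagen levels was not tested.

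Among matricellular proteins and glycoproteins, 17 of 24 rose and 4 fell (median 2.82). Thbs1, an activator of latent TGF-beta, stood at 1270.1, 1325, 919 and 1586 CPM in the tumours and 3.22, 4.99 and 4.94 CPM in SVZ (log2 fold change 8.18 ± 0.31 (SE)). Lox, which crosslinks collagen, stood at 1084, 746, 476 and 757 CPM in the tumours and 2.12, 2.47 and 3.76 CPM in SVZ (log2 fold change 8.10 ± 0.70 (SE)). Both were under 6 CPM in every SVZ library. Sparcl1, the astrocytic relative of Sparc, fell, with means of 516 against 2405 CPM (log2 fold change -2.22 ± 0.27 (SE)). Sparc itself was not called, with 1688, 1419, 1301 and 1549 CPM in the tumours and 1329.5, 1142 and 1443 CPM in SVZ (log2 fold change 0.19 ± 0.13 (SE)). Integrin and laminin chains rose in 17 of 29 cases and fell in 2 (median 1.33). The shared beta subunit Itgb1 stood at 1042, 940.3, 754 and 975 CPM in the tumours and 142, 164 and 179 CPM in SVZ (log2 fold change 2.52 ± 0.16 (SE)), and the collagen receptor subunit Itga1 and the laminin receptor subunit Itga3 at means of 277 against 17.3 CPM and 311 against 26.4 CPM. Of 28 matrix proteases and inhibitors 18 rose and 7 fell, and among the 19 that passed the filter in the SVZ libraries themselves the numbers were 9 and 7. The aggrecanase Adamts5 stood at 617, 594, 310.1 and 577 CPM in the tumours and 3.64, 4.99 and 5.62 CPM in SVZ (log2 fold change 6.79 ± 0.31 (SE)), and the membrane protease Mmp14 at 249, 241, 188 and 262 CPM in the tumours and 16.9, 20.5 and 18.7 CPM in SVZ (log2 fold change 3.65 ± 0.13 (SE)). The protease inhibitor Serpine2 fell, with means of 139 against 314 CPM.

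Epithelial genes were present in the tumours. Krt7, a simple epithelial keratin, stood at 361, 371, 504 and 273 CPM in the tumours and 0.184, 0.225 and 0.489 CPM in SVZ (log2 fold change 10.29 ± 0.55 (SE)). Krt18 and its partner Krt8 stood at 369, 259, 872 and 193 CPM and at 199, 93.8, 531 and 72 CPM in the tumours, and at no more than 5.75 CPM in any SVZ library (6.84 ± 0.67 and 6.82 ± 0.82). Replicate 3 was the highest tumour for all 3 keratins. Of 18 keratin and epithelial junction genes 14 rose and 1 (Ocln) fell, and of the 11 that passed the filter in SVZ 7 rose. The E-cadherin gene Cdh1 stood at means of 24.1 against 0.611 CPM, and Cdh2, the N-cadherin of neural cells, was also called higher (308 against 143 CPM). In the list of S100 proteins, annexins and galectins, which bind calcium, membranes or glycans, 16 of 23 rose and 2 fell. Of the 19 that passed the filter within the SVZ libraries, 12 rose and 2 fell. Anxa1 stood at 762, 744, 799 and 659 CPM in the tumours and 1.15, 1.03 and 2.0 CPM in SVZ (log2 fold change 9.05 ± 0.29 (SE)), and S100a11 at 781, 636, 727 and 525 CPM in the tumours and 6.82, 6.47 and 9.19 CPM in SVZ (log2 fold change 6.48 ± 0.22 (SE)). The members called lower were S100a16 and S100b, the latter an astrocyte and oligodendrocyte protein (29.3 against 167 CPM).

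Growth factor systems changed in both directions. In the ErbB family Egfr rose, with 299.9, 285, 238 and 243 CPM in the tumours and 19.1, 22.4 and 24.5 CPM in SVZ (log2 fold change 3.60 ± 0.19 (SE)), while Erbb3 and Erbb4, the neuregulin receptors, fell (5.32 against 41.1 CPM and 21.5 against 52.6 CPM). Of the ligands Nrg1 stood at 98, 118, 70.1 and 80.7 CPM in the tumours and 6.72, 7.37 and 7.23 CPM in SVZ (log2 fold change 3.69 ± 0.33 (SE)) and Tgfa, a ligand of EGFR, at 17.3, 18.5, 17.6 and 20.7 CPM in the tumours and 86, 90.6 and 89 CPM in SVZ (log2 fold change -2.26 ± 0.19 (SE)). Nrg1 was thus higher and Tgfa lower in every tumour library. Ereg, another EGFR ligand, had 1 count in all SVZ libraries together and 15.8, 19.1, 16.4 and 29.8 CPM in the tumours, a ratio of 1315-fold (exact 95% interval 236 to 51950.2). Over the list 7 of 13 rose and 5 fell. Of the 11 that passed the filter within the SVZ libraries, 5 rose and 5 fell. In the FGF, IGF, PDGF and HGF axes 17 of 28 rose and 6 fell (median 1.22). Besides Igf2, the IGF receptor Igf1r and the binding protein Igfbp2 rose, with means of 159.8 against 57.3 CPM and 1375 against 59.8 CPM. Igfbp5 fell, with 109, 108, 56.8 and 117 CPM in the tumours and 209.5, 254 and 234 CPM in SVZ (log2 fold change -1.25 ± 0.24 (SE)), and was not called without tumour replicate 3, its lowest library (-0.95). Met, the receptor of hepatocyte growth factor, stood at means of 129 against 2.99 CPM, and Hgf at 4.15 against 1.83 CPM. Fgf1, Fgf9 and Fgf13, which neurons express, and the receptors Fgfr3 and Pdgfra, of glia and glial progenitors, were called lower.

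Among Eph receptors, which guide axons and sort cells, 9 of 14 fell and 2 rose (median -1.85), and 12 of the 14 passed the filter within the tumours. Epha2, an epithelial Eph receptor, stood at 72.2, 64, 78.6 and 68 CPM in the tumours and 1.52, 1.30 and 1.32 CPM in SVZ (log2 fold change 5.67 ± 0.19 (SE)), and Ephb1 at 5.04, 4.0, 5.29 and 9.72 CPM in the tumours and 96.6, 97.7 and 109 CPM in SVZ (log2 fold change -4.07 ± 0.27 (SE)). TGF-beta and BMP genes rose in 10 of 23 cases and fell in 1 (median 0.73). The ligand Tgfb3 stood at 274, 320.2, 166 and 281 CPM in the tumours and 7.0, 9.30 and 6.26 CPM in SVZ (log2 fold change 5.11 ± 0.28 (SE)), the receptor Tgfbr2 at 337, 352, 236 and 365 CPM in the tumours and 22.2, 26 and 29.3 CPM in SVZ (log2 fold change 3.64 ± 0.18 (SE)) and the activin subunit Inhba at 216, 244, 103 and 320.4 CPM in the tumours and 17.2, 14.2 and 15.2 CPM in SVZ (log2 fold change 3.83 ± 0.36 (SE)). Tgfbr2 and Inhba were both lowest in replicate 3 and above SVZ in every tumour. Bmp4 stood at means of 223 against 12.6 CPM. The common response genes Id1, Id2, Id3, Smad7 and Skil were not called.

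Notch genes changed in both directions. The ligand Jag1, the receptor Notch2, the nuclear partner Rbpj and the target Hes1 rose, and the ligands Dll1, Dll3 and Jag2 and the targets Hes5, Hey1, Heyl and Nrarp fell. Jag1 stood at 95.1, 87.9, 66.1 and 65 CPM in the tumours and 7.05, 8.27 and 9.82 CPM in SVZ (log2 fold change 3.23 ± 0.18 (SE)), and Hey1 at 20.2, 18.6, 18.6 and 19.9 CPM in the tumours and 59.9, 57.9 and 57.6 CPM in SVZ (log2 fold change -1.59 ± 0.16 (SE)). The count called higher, 4 of 15, is near the background share, and the count called lower, 7 of 15 (46.7%), is above the 28.9% over all genes. Of 25 Wnt pathway genes 14 rose and 4 fell (median 1.49). The ligand Wnt5a stood at 85.5, 84.8, 51 and 87.9 CPM in the tumours and 8.93, 11.1 and 10.7 CPM in SVZ (log2 fold change 2.92 ± 0.29 (SE)). The genes called lower were Axin2, Lef1 and Notum, which respond to beta-catenin, and the receptor gene Fzd10, with Axin2 at means of 7.29 against 26.2 CPM and Lef1 at 4.53 against 20.6 CPM. Of 12 Hedgehog genes none rose and 4 fell, near the background share of lower genes, and 9 of the 12 passed the filter within the tumours. Among those called were the ligand Shh (0.514 against 5.59 CPM) and the factors Gli1 (0.201 against 3.31 CPM) and Gli2 (1.02 against 6.54 CPM). Gli1, a direct readout of the pathway, stood at 0.147, 0.0741, 0.213 and 0.371 CPM in the tumours and 3.36, 3.28 and 3.27 CPM in SVZ (log2 fold change -4.00 ± 0.44 (SE)).

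Genes of positional identity differed between the groups. Hox genes, which pattern the body behind the forebrain, summed to 174, 209, 179.9 and 131 CPM over all 39 genes in the tumours and to 0.414, 0.854 and 0.489 CPM in SVZ. None of them passed the filter within the SVZ libraries, and 32 entered the test through other libraries, so no count of calls is given for them. Hoxd13, the most distal gene of its cluster, stood at 64.3, 88.7, 72.1 and 41.4 CPM in the tumours and had 1 count over the 3 SVZ libraries, a ratio of 4280.3-fold (exact 95% interval 768 to 169088). Hoxd8 stood at 14.7, 17, 15.4 and 7.68 CPM and Hoxa10 at 12.6, 12, 9.17 and 8.61 CPM, each with 2 counts in SVZ. Hoxd10 stood at 9.75, 11, 8.23 and 6.05 CPM with no count in SVZ, and was at least 189-fold higher against a floor of 3 counts over the group. Hoxd8 to Hoxd13 exceeded 2 CPM in every tumour. Hoxd1, Hoxd3 and Hoxd4 stayed under 0.3 CPM in every tumour, and Hoxd1 stood at 0.184, 0.584 and 0.0977 CPM in SVZ. Hoxd13 was lowest and Hoxb9 highest in replicate 4.

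**Figure D4:**
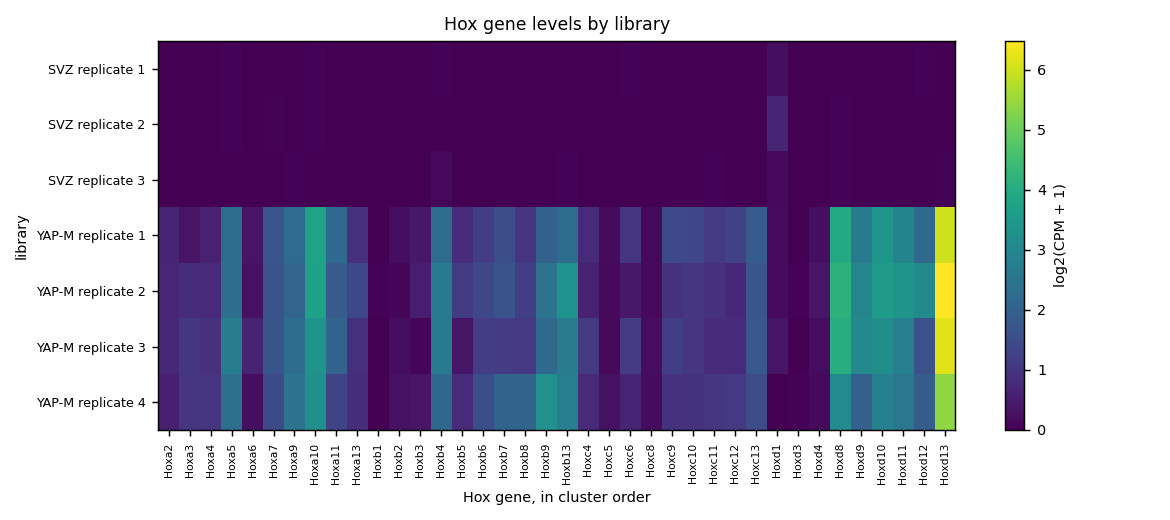
Colours give log2(CPM + 1) of 38 of the 39 Hox genes in cluster order (x axis) for the 3 SVZ and 4 YAP-M libraries (rows). The SVZ rows are near 0 except for Hoxd1, and the tumour rows are above the SVZ rows for most genes, among them Hoxa10, Hoxb13 and Hoxd8 to Hoxd13. Levels are not scaled for gene length, so columns are not compared with each other.

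Forebrain transcription factors were mostly lower or not called: of 23, 12 fell and 2 rose (median -1.24). All 23 passed the filter within the SVZ libraries and 17 within the tumours. Bcl11b, of striatal and cortical neurons, stood at 5.30, 5.78, 2.13 and 4.34 CPM in the tumours and 166, 158 and 169.8 CPM in SVZ (log2 fold change -5.22 ± 0.29 (SE)). The interneuron and striatal factors Dlx1, Dlx5, Dlx6, Sp9 and Isl1 fell, with Dlx1 at means of 2.57 against 34.9 CPM. Six3 stood at 6.92, 1.93, 9.13 and 2.30 CPM in the tumours and 48.9, 50.6 and 64.3 CPM in SVZ (log2 fold change -3.43 ± 0.94 (SE)). Pax6 and Emx2, factors of dorsal forebrain progenitors, rose, and Pax6 stood at 84.1, 129, 41.8 and 123 CPM in the tumours and 15.8, 17 and 14.8 CPM in SVZ (log2 fold change 2.57 ± 0.34 (SE)). The tumour libraries thus held transcripts of forebrain progenitor factors and of distal Hox genes in the same bulk RNA, and whether the same cells carry both cannot be read from it.

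Fetal and imprinted genes rose in 12 of 17 cases and fell in 3. Of the 14 that passed the filter within the SVZ libraries, 9 rose and 3 fell. Besides Igf2 and Peg10, Plagl1, an imprinted zinc finger factor, stood at 739, 737, 588 and 607 CPM in the tumours and 25.1, 26.7 and 30.5 CPM in SVZ (log2 fold change 4.60 ± 0.30 (SE)), and Grb10, an adaptor that restrains growth signalling, at 416, 408, 265 and 389 CPM in the tumours and 56.6, 60.7 and 62.3 CPM in SVZ (log2 fold change 2.62 ± 0.17 (SE)). H19, the imprinted RNA beside Igf2, stood at means of 238 against 1.40 CPM, the chromatin protein gene Hmga2 at 200.2 against 0.189 CPM and the RNA-binding protein gene Igf2bp1 at 47.3 against 0.122 CPM. Other imprinted genes fell, Meg3 with 239, 164, 312 and 329 CPM in the tumours and 3080.3, 2689 and 3327 CPM in SVZ (log2 fold change -3.54 ± 0.32 (SE)), Peg3 with means of 179 against 369 CPM and Dlk1 with 13.3 against 31.4 CPM. Peg3 lay at the threshold and was not called in 11 of 18 alternative analyses.

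Proliferation genes rose without exception in the list: all 30 DNA replication and mitosis genes were called higher, with a median log2 fold change of 3.22 and sums of 1497 to 2073 CPM in the tumours and 209.96 to 254 CPM in SVZ. Of the 30, 28 passed the filter in SVZ. Mki67, a protein of cycling cells, stood at 219.5, 215, 175 and 152 CPM in the tumours and 10.3, 19.4 and 15.7 CPM in SVZ (log2 fold change 3.65 ± 0.31 (SE)), and Top2a, which untangles mitotic DNA, at 135, 146, 107 and 99.8 CPM in the tumours and 10.7, 16.1 and 14.5 CPM in SVZ (log2 fold change 3.15 ± 0.34 (SE)). Rrm2, which makes deoxynucleotides, stood at 168, 138, 209 and 118 CPM in the tumours and 6.08, 6.83 and 6.84 CPM in SVZ (log2 fold change 4.59 ± 0.29 (SE)). Every tumour exceeded every SVZ library for each of these genes. Of 14 D cyclins, their kinases and CDK inhibitors 10 rose and none fell, and of the 12 that passed the filter in SVZ 8 rose. Cdk6 stood at 177, 170.4, 138 and 151 CPM in the tumours and 5.80, 7.19 and 6.89 CPM in SVZ (log2 fold change 4.58 ± 0.17 (SE)), and Ccnd1 at means of 86.9 against 34 CPM. The inhibitors rose in the same libraries, with Cdkn1c at 297, 244, 392 and 258 CPM in the tumours and 14.1, 18.2 and 19.2 CPM in SVZ (log2 fold change 4.12 ± 0.35 (SE)) and Cdkn1a at 119.5, 109.7, 123 and 135 CPM in the tumours and 18, 17.5 and 15.5 CPM in SVZ (log2 fold change 2.84 ± 0.43 (SE)). Cdkn2a, which encodes p16 and ARF, stood at 44.4, 38.2, 42.2 and 35.3 CPM in the tumours and had 1 count over the SVZ libraries, a ratio of 2574-fold (exact 95% interval 462 to 101686). Rb1, Ccnd2, Cdkn1b and Cdkn2d were not called. Targets of p53 rose in 11 of 16 cases and none fell (median 1.62), with Ccng1 at 354, 287, 347 and 284 CPM in the tumours and 78.9, 87 and 86.4 CPM in SVZ (log2 fold change 1.92 ± 0.27 (SE)). Mdm2, the p53 ubiquitin ligase, was not called (81 against 60.7 CPM).

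Myc stood at 112, 129.9, 125 and 106 CPM in the tumours and 5.80, 6.47 and 5.47 CPM in SVZ (log2 fold change 4.32 ± 0.15 (SE)) and Mycl at 3.20, 2.85, 6.14 and 7.75 CPM in the tumours and 30.6, 30.4 and 32.2 CPM in SVZ (log2 fold change -2.64 ± 0.36 (SE)). Over the MYC network 3 of 12 rose, a share near the background. The Polycomb and DNA methylation genes also held a share near the background, with 7 of 22 higher and 5 lower. Ezh2, the methyltransferase of Polycomb complex 2, stood at 52, 59.4, 45.2 and 43 CPM in the tumours and 12.6, 14.3 and 16.2 CPM in SVZ (log2 fold change 1.80 ± 0.17 (SE)), and the DNA methyltransferase gene Dnmt3a at 54.5, 55.6, 43.9 and 65.7 CPM in the tumours and 137, 152 and 153 CPM in SVZ (log2 fold change -1.42 ± 0.13 (SE)). Transcriptional coactivators changed little: 2 of 20 rose (Maml1 and Cdk7) and 1 (Med24) fell, both shares below the background, and the median was 0.05. Ep300 was not called, with means of 88 against 64.2 CPM.

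Mitochondrially encoded transcripts were lower in all 13 cases (median -1.62), with mt-Co1, a subunit of cytochrome oxidase, at 13308, 13329, 14681 and 15489.6 CPM in the tumours and 35662, 32330.1 and 47650.1 CPM in SVZ (log2 fold change -1.44 ± 0.13 (SE)). With quantile normalization by limma 4 of them were called lower, and mt-Co1 had a log2 fold change of 0. That method gives genes of equal rank the same value in every library, so it cannot show a change of transcripts that keep the top rank. Nuclear genes of the respiratory chain shifted less: none rose and 4 of 30 fell past 2-fold, with a median of -0.61. Sdha, of complex II, stood at 140.4, 144, 145 and 151 CPM in the tumours and 309, 299.7 and 312 CPM in SVZ (log2 fold change -1.08 ± 0.12 (SE)), and its call was lost in 6 of 18 alternative analyses. By adjusted p alone, with no minimum fold, 25 of the 30 were lower. Glycolysis and hypoxia genes rose in 7 and fell in 6 of 26 cases, near the background in both directions, but the lactate dehydrogenase subunits went opposite ways. Ldha, the lactate dehydrogenase subunit of glycolytic tissue, stood at 428, 623, 388 and 581 CPM in the tumours and 188, 167 and 168 CPM in SVZ (log2 fold change 1.53 ± 0.17 (SE)), and Ldhb, of oxidative tissue, at 68.7, 60.2, 70.7 and 96.4 CPM in the tumours and 401, 371 and 396 CPM in SVZ (log2 fold change -2.40 ± 0.30 (SE)). The neuronal enolase Eno2 stood at means of 84.9 against 709 CPM and the glucose transporter Slc2a1 at 303 against 85.7 CPM. In the ATF4 amino acid response 6 of 18 rose and 1 fell. The amino acid transporter pair Slc7a5 and Slc3a2 stood at means of 282 against 64.9 CPM and 297 against 108 CPM. Slc7a11, the cystine transporter that shares the Slc3a2 subunit and that astrocytes express, stood at 15, 16.6, 14.4 and 15.1 CPM in the tumours and 84.1, 97.3 and 90.8 CPM in SVZ (log2 fold change -2.57 ± 0.11 (SE)).

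Genes of mature neurons were lower in every list. All 20 striatal medium spiny neuron genes, 16 synaptic and structural genes, 21 glutamate receptor genes, 14 GABA receptor genes and 26 voltage-gated ion channel genes tested were called lower. Their median log2 fold changes were -5.01, -3.59, -3.43, -3.18 and -3.36. Ppp1r1b (DARPP-32), the dopamine signalling protein of striatal neurons, stood at 24.9, 26, 12.7 and 8.94 CPM in the tumours and 575, 495 and 541 CPM in SVZ (log2 fold change -4.89 ± 0.54 (SE)), and Penk, which encodes enkephalins, at 10.7, 21.6, 15.4 and 8.68 CPM in the tumours and 608, 502 and 567 CPM in SVZ (log2 fold change -5.31 ± 0.32 (SE)). Snap25, of the vesicle fusion machinery, stood at 72.8, 26, 65.2 and 163 CPM in the tumours and 1281, 1177 and 1188 CPM in SVZ (log2 fold change -3.89 ± 0.67 (SE)). The AMPA receptor subunit Gria2 stood at 39.4, 29.4, 36.5 and 44 CPM in the tumours and 514, 485 and 467 CPM in SVZ (log2 fold change -3.71 ± 0.36 (SE)), and the sodium channel Scn4b at 9.38, 7.08, 3.16 and 4.68 CPM in the tumours and 298, 282 and 276 CPM in SVZ (log2 fold change -5.55 ± 0.43 (SE)). The tumours kept a low level of each, and Snap25 was highest in replicate 4 and lowest in replicate 2. In bulk RNA, fewer cells of a type and less RNA per cell cannot be told apart. Neuroblast genes were lower in 11 of 14 cases, with Gad1, which makes GABA, at 16.6, 10.9, 28.4 and 35.8 CPM in the tumours and 304, 319 and 338 CPM in SVZ (log2 fold change -3.80 ± 0.40 (SE)) and Dcx at means of 5.48 against 38.6 CPM. Cd24a rose (187 against 38.3 CPM), and Sox4 and Sox11 were not called.

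Radial glial and stem cell genes did not move as a block. Vim, Egfr, Nes, Tnc and Hes1 rose, and 10 of 17 fell, among them Sox2 (25.2 against 84.4 CPM), Nr2e1 (2.11 against 19.97 CPM) and Hes5 (0.171 against 6.34 CPM). Ptprz1 stood at 125, 112, 147 and 119 CPM in the tumours and 411, 483 and 514 CPM in SVZ (log2 fold change -1.90 ± 0.13 (SE)). Sox9 and Fabp7 were not called. Among astrocyte genes 1 (Gfap) of 14 rose and 8 fell. Gfap, the filament of reactive astrocytes, stood at 1326, 1028, 1059 and 1599 CPM in the tumours and 264, 270.2 and 259.98 CPM in SVZ (log2 fold change 2.24 ± 0.35 (SE)), whereas Slc1a2, the glutamate transporter of mature astrocytes, stood at 289, 216, 219.99 and 393 CPM in the tumours and 2485, 2993 and 3662 CPM in SVZ (log2 fold change -3.45 ± 0.41 (SE)). Aqp4, the water channel of astrocytic endfeet, was not called (338 against 309 CPM).

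Oligodendrocyte genes fell in 15 of 16 cases (median -3.76), with sums of 790.4, 829, 1921 and 3666 CPM in the tumours and 30619, 31871 and 36584 CPM in SVZ. Mbp, the myelin basic protein, stood at 343, 334, 792 and 1429.98 CPM in the tumours and 13015, 13358 and 16075 CPM in SVZ (log2 fold change -4.29 ± 0.53 (SE)). Mobp, another myelin protein, stood at 67.1, 62.5, 213 and 452 CPM in the tumours and 3758, 3975 and 4951 CPM in SVZ (log2 fold change -4.41 ± 0.77 (SE)). The tumours were unequal for each, with replicate 4 highest and replicate 3 next. Cspg4, a gene of oligodendrocyte progenitors and pericytes, was the member not called (25.8 against 31.5 CPM).

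Ependymoma is named for its likeness to ependymal cells, the multiciliated lining of the ventricles. Of 22 multiciliated cell genes tested out of 25, none rose and 16 fell (median -2.24), and their sum was 36.9 to 63.6 CPM in the tumours and 181 to 224 CPM in SVZ. All 22 passed the filter within the SVZ libraries, but 15 did so within the tumours, so some falls are of genes that entered the test through other libraries. The factor Foxj1 stood at 11.1, 8.19, 13.6 and 18.3 CPM in the tumours and 20.2, 26.7 and 20.8 CPM in SVZ, lower in every tumour but not called (log2 fold change -0.82 ± 0.37 (SE), adjusted p = 0.0622). Rfx3, a factor of ciliary genes, stood at 6.44, 5.0, 6.01 and 6.83 CPM in the tumours and 54.4, 49.9 and 47.3 CPM in SVZ (log2 fold change -3.06 ± 0.16 (SE)), and the axonemal dynein gene Dnaic1 at 0.773, 0.222, 0.554 and 0.890 CPM in the tumours and 9.90, 12.8 and 13.1 CPM in SVZ (log2 fold change -4.28 ± 0.47 (SE)). Gmnc, which starts the multiciliated programme, stood at 0.110, 0.0370, 0 and 0.371 CPM in the tumours and 2.12, 2.56 and 2.74 CPM in SVZ, a few counts or none per tumour. Ccno, Dnah11, Rsph1, Rfx2 and Ccdc40 were the other tested members not called, and Rsph1 ranged widely among tumours, with 8.87, 1.22, 9.81 and 3.90 CPM. With a minimum of 5 CPM 8 members were called lower. Choroid plexus genes fell in 7 of 10 cases, and the number that passed the filter within the tumours was also 7. Ttr, the transthyretin gene that the choroid plexus expresses at very high levels, stood at 259, 1.74, 0.682 and 217 CPM in the tumours and 907, 2254 and 2106 CPM in SVZ, a split between tumours 1 and 4 and tumours 2 and 3, and it was not called (log2 fold change -3.88 ± 1.69 (SE), adjusted p = 0.053). It passed the threshold with DESeq2, with quantile normalization, with no filter and in the fit with a replicate block.

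**Figure D5:**
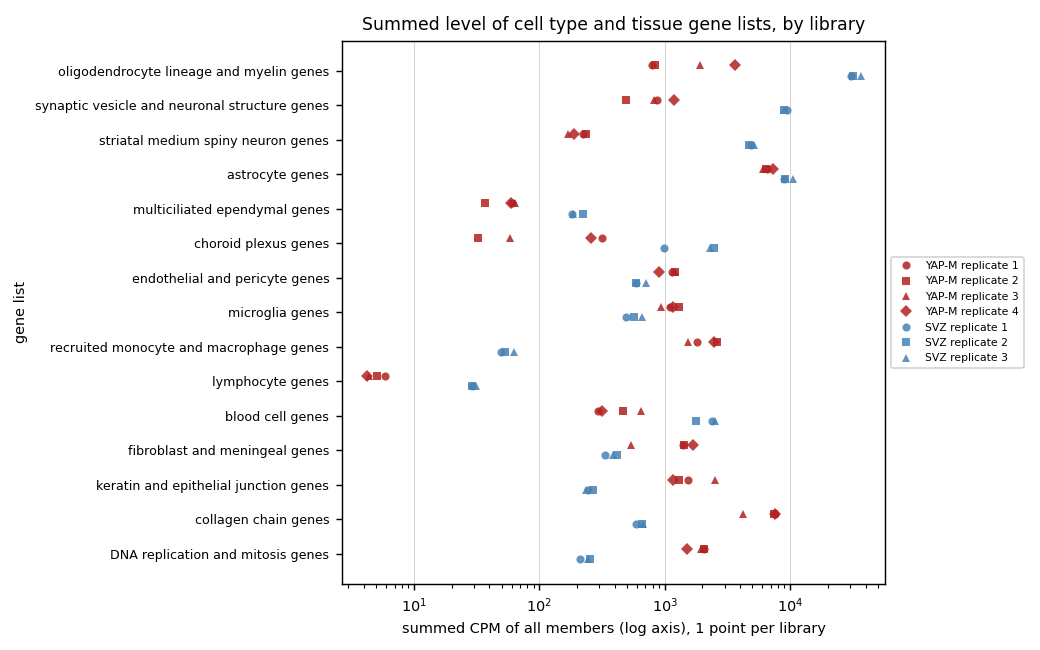
Points give the summed CPM of all members of 15 lists on a log axis, red for tumours and blue for SVZ, with 1 marker shape per replicate number. Neural, ciliated and blood lists lie lower in the tumours and macrophage, collagen and replication lists higher. Tumour replicate 3 stands apart for collagens and keratins and replicates 3 and 4 for oligodendrocyte genes.

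Myeloid genes differed by type. Of 12 microglial genes 6 rose and 2 fell. Csf1r, the growth factor receptor of macrophages and microglia, stood at 408, 446, 373 and 476 CPM in the tumours and 127, 148 and 168 CPM in SVZ (log2 fold change 1.53 ± 0.21 (SE)), while Siglech and Sall1, markers of homeostatic microglia, fell (6.52 against 19.2 CPM and 20.5 against 41.2 CPM). Sall1 lay at the 2-fold threshold and was not called in 12 of 18 alternative analyses. P2ry12 was not called (51.5 against 89.95 CPM). Genes of recruited monocytes and macrophages summed to 1537 to 2613 CPM in the tumours and 49.3 to 62.5 CPM in SVZ. Of 15 tested 13 rose and none fell, and of the 9 that passed the filter in SVZ 7 rose. Lyz2, the lysozyme of myeloid cells, stood at 817, 842, 574 and 1116 CPM in the tumours and 4.24, 5.17 and 8.41 CPM in SVZ (log2 fold change 7.14 ± 0.36 (SE)), and Msr1, a scavenger receptor, at 77, 137, 70.9 and 109.9 CPM in the tumours and 0.461, 0.135 and 0.0977 CPM in SVZ (log2 fold change 8.70 ± 0.49 (SE)). Spp1 (osteopontin), made by macrophages and by some tumour cells, stood at 634, 1192, 559 and 839 CPM in the tumours and 6.13, 7.60 and 8.70 CPM in SVZ (log2 fold change 6.75 ± 0.43 (SE)). Cd163 and Ly6c2 were not called. Lymphocyte genes were at or near 0, since 2 of 14 passed the filter and the sum was 4.19 to 5.85 CPM in the tumours and 29 to 31.2 CPM in SVZ. Cd4, which mouse microglia and macrophages can carry as well, made up most of it in SVZ (2.35, 1.93, 0.810 and 1.52 CPM in the tumours and 26.4, 27.1 and 29.3 CPM in SVZ). The difference between the sums lay in Cd4. With no filter on low counts, 4 lymphocyte genes were called higher and 2 lower.

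Immune pathway genes moved in the same libraries. MHC class I and II genes rose in 21 of 22 cases, and of the 15 that passed the filter in SVZ all 15 rose. H2-D1, a class I heavy chain, stood at 522, 591, 535 and 569.8 CPM in the tumours and 32, 32.4 and 33.9 CPM in SVZ (log2 fold change 4.08 ± 0.21 (SE)), and Cd74, the class II invariant chain, at 110.2, 234, 94.5 and 226 CPM in the tumours and 3.59, 2.97 and 3.86 CPM in SVZ (log2 fold change 5.58 ± 0.88 (SE)). H2-D1 was even among tumours, whereas Cd74 was about as high in replicates 2 and 4 and lower in replicates 1 and 3. H2-D1 and H2-K1 belong to a family of near-identical genes, and how reads were shared among them is not given in the sources used here. Interferon-stimulated genes rose in 16 of 20 cases, and in 12 of the 16 that passed the filter in SVZ, with Irf7 at 32.6, 40.9, 26.1 and 45.5 CPM in the tumours and 1.89, 3.33 and 2.54 CPM in SVZ (log2 fold change 3.81 ± 0.25 (SE)). Complement genes rose in 14 of 16, and in 10 of the 12 that passed it in SVZ, with C1qa at 539, 633, 504 and 698 CPM in the tumours and 51.8, 51 and 64.9 CPM in SVZ (log2 fold change 3.41 ± 0.25 (SE)). Chemokine genes rose in 17 of 20 and fell in 2, but 6 of them passed the filter in SVZ, of which 3 rose and 2 fell. Cx3cl1, the neuronal fractalkine gene, stood at 40.5, 22.9, 36.5 and 46.6 CPM in the tumours and 556, 525 and 444 CPM in SVZ (log2 fold change -3.79 ± 0.27 (SE)), and Cxcl12 at means of 15 against 57.2 CPM. The macrophage sums given above were more than 20-fold higher in each tumour than in any SVZ library, and the part of myeloid cells in these lists was not tested.

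Vascular genes moved unevenly. Of 18 endothelial and pericyte genes 8 rose and 2 fell (median 0.70). Flt1, a VEGF receptor, stood at 139, 146, 107 and 99.5 CPM in the tumours and 39.7, 38.5 and 56.4 CPM in SVZ (log2 fold change 1.45 ± 0.20 (SE)), and Vegfa, the ligand, at 228, 243, 256 and 184 CPM in the tumours and 66.8, 75.3 and 73.4 CPM in SVZ (log2 fold change 1.66 ± 0.13 (SE)). The defining endothelial genes Pecam1, Cldn5, Kdr and Emcn were not called, and Cldn5 stood at 47.9, 54.5, 60.2 and 34.5 CPM in the tumours and 32.7, 27.8 and 37.9 CPM in SVZ. Red cell genes were lower, with Hba-a1 at 53.9, 114, 129 and 59.5 CPM in the tumours and 707, 523 and 735 CPM in SVZ (log2 fold change -2.88 ± 0.38 (SE)). The alpha globin copies Hba-a1 and Hba-a2 share most of their sequence, so the split of reads between them is uncertain. Ppbp, a platelet chemokine, stood at 108, 82.5, 223 and 103 CPM in the tumours and had 1 count over the SVZ libraries, a ratio of 8110.3-fold (exact 95% interval 1455 to 320365). Pf4, the other platelet chemokine, stood at 2.87, 2.04, 2.52 and 3.67 CPM in the tumours and 0.737, 0.629 and 0.342 CPM in SVZ.

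The tumours varied more among themselves than the SVZ libraries did, with a median SD of log2(CPM + 1) of 0.190 against 0.107 over the genes tested. The genes of largest spread with at least 20 CPM included Col4a6, a basement membrane chain, with 62.4, 64.3, 2.26 and 28.9 CPM in the tumours and 1.29, 1.53 and 1.22 CPM in SVZ. Plet1, a surface protein of trophoblast and epithelial progenitors, stood at 27.9, 8.63, 101 and 2.23 CPM in the tumours and 0.138, 0.629 and 0.293 CPM in SVZ. The lowest tumour of Col4a6, replicate 3, was the highest of Plet1. Rps3a3, a processed copy of a ribosomal protein gene, stood at 149.6, 163, 133 and 12.3 CPM in the tumours and 2.90, 2.83 and 3.52 CPM in SVZ, with replicate 4 apart. The neuronal genes Nap1l5, Disp2, Tmem130, Rasgrf1 and Vamp1 also varied, and for each replicates 3 and 4 were the highest tumours. Nap1l5, an imprinted gene of neurons, stood at 41.8, 15.4, 149.5 and 170.4 CPM in the tumours and 467, 395 and 491 CPM in SVZ (log2 fold change -2.26 ± 0.66 (SE)). Collagen chains summed to 7635, 7469, 4189.5 and 7599.8 CPM and keratin and junction genes to 1525, 1299, 2526 and 1156 CPM, so that replicate 3 had the lowest collagen and the highest keratin sum. In SVZ the spread was largest for choroid plexus genes (Ttr, Kl, Tmem72), all lowest in replicate 1, and for copies of Rpl35a and Tmem254 whose reads cannot be assigned with certainty.

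Some genes did not differ detectably. Ddx5, an RNA helicase, stood at 827, 869, 829 and 897 CPM in the tumours and 819.6, 852 and 827 CPM in SVZ (log2 fold change 0.04 ± 0.09 (SE)), Hnrnpu, a nuclear RNA-binding protein, at 901, 979, 898 and 799.6 CPM in the tumours and 846, 873 and 867 CPM in SVZ (log2 fold change 0.05 ± 0.12 (SE)), and Fth1, ferritin heavy chain, at 1706, 1912, 2054 and 2125 CPM in the tumours and 1893, 1775 and 1963 CPM in SVZ (log2 fold change 0.05 ± 0.12 (SE)). For each of these genes the groups overlapped. Gapdh, often used as a reference gene, stood at 1498, 1773, 1301 and 1733 CPM in the tumours and 1707, 1514 and 1489 CPM in SVZ (log2 fold change 0.01 ± 0.12 (SE)), although other glycolytic genes were called in both directions.

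Levels in the remaining libraries place these values. Against YAP-M-dIDR, 9.61% of all genes were higher and 6.78% lower in the YAP-M tumours, and against NSC-YAP the shares were 28.9% and 21.6%. Yap1 stood at 183, 838 and 1274 CPM in YAP-M-dIDR and at 241 and 238 CPM in NSC-YAP, above the 92.9, 105, 98.2 and 92.7 CPM of the YAP-M tumours (log2 fold change against YAP-M-dIDR -2.98 ± 0.45 (SE), adjusted p = 0.000517, and against NSC-YAP -1.30 ± 0.48 (SE), adjusted p = 0.0288). Ankrd1 stood at 1498, 1356 and 992 CPM in YAP-M-dIDR (YAP-M against it -0.16 ± 0.37 (SE), adjusted p = 0.744) and at 0.651 and 0.163 CPM in NSC-YAP (11.44 ± 0.78 (SE), adjusted p = 2.69e-07). Other targets had higher levels in NSC-YAP than in SVZ. Amotl2 stood at 107 and 111 CPM in NSC-YAP (NSC-YAP against SVZ 2.16 ± 0.14 (SE), adjusted p = 2.77e-07) and Ccn1 at 38.5 and 35.2 CPM (2.01 ± 0.15 (SE), adjusted p = 7.72e-07), whereas Ccn2 was lower, at 0.204 and 0.285 CPM (-5.42 ± 0.40 (SE), adjusted p = 6.77e-07). The 25 targets summed to 5917, 6339.7 and 5478 CPM in YAP-M-dIDR and to 1209 and 1215 CPM in NSC-YAP. Krt8 stood at 5.39, 11.6 and 7.99 CPM in YAP-M-dIDR (YAP-M against it 4.75 ± 0.72 (SE), adjusted p = 0.000509). Hox genes went both ways between the construct groups. Their sums were 181, 212 and 154 CPM in YAP-M-dIDR and 62.9 and 59.4 CPM in NSC-YAP, so the YAP-M-dIDR sums overlapped those of the YAP-M tumours. Hoxd13 stood at 25.7, 2.30 and 7.90 CPM in YAP-M-dIDR (YAP-M against it 2.47 ± 0.61 (SE), adjusted p = 0.00793). Hoxb9 stood at 39.7, 60.4 and 27.2 CPM there and at 2.98, 4.56, 3.62 and 8.68 CPM in the YAP-M tumours (-3.09 ± 0.41 (SE), adjusted p = 0.00077). Igf2 was higher in YAP-M-dIDR, with 6846, 6282 and 10355 CPM (YAP-M against it -1.45 ± 0.23 (SE), adjusted p = 0.00073), and stood at 0.855 and 1.39 CPM in NSC-YAP. Mki67 stood at 165 and 190.2 CPM in NSC-YAP, and the difference from YAP-M was not called (0.10 ± 0.30 (SE), adjusted p = 0.77). Foxj1 stood at 37.3 and 37.5 CPM in NSC-YAP, above every tumour (-1.55 ± 0.41 (SE), adjusted p = 0.00499).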

How the data were processed

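Gene counts were deposited for 12 RNA-seq libraries (4 YAP-M, 3 SVZ, 3 YAP-M-dIDR, 2 NSC-YAP), each as whole-number read counts per Ensembl entry in a file of its own. The reads were aligned with TopHat2 to mm10, per the submitters' processing notes. The counting program, strand setting and gene models behind the counts are not stated in the labels, so reads of overlapping and antisense genes cannot be told apart, and near-identical copies are uncertain. The 53090 entries were summed to 52850 symbols. Symbols are those of the files.

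Genes reaching 1 CPM in 2 or more of the 12 libraries (18329) were tested with edgeR 4.0.16 (R 4.3.3): TMM scaling and the quasi-likelihood test in one fit of the 4 groups, with the contrast YAP-M minus SVZ. A gene was called at a Benjamini-Hochberg adjusted p under 0.05 and at least a 2-fold change, and every adjusted p in the text comes from edgeR. "Rose", "fell", "higher" and "lower" refer to calls when said of a test. The SE is the size of the log2 fold change over the square root of F. CPM use the scaled library sizes, in which 3 counts equal 0.110 to 0.147 CPM in a tumour or SVZ library. Folds against 0 counts are lower bounds against 3 counts over the SVZ group (0.0466 CPM), and folds against 1 to 3 counts are ratios with exact 95% intervals. These cover counting error only. Levels are not scaled for gene length, so they are compared between libraries and not between genes.

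The 51 gene lists (979 genes, 946 tested) and the comparison were chosen with earlier results of these data known. Named genes were the 12 largest gains and losses in mean CPM with no overlap between groups, up to 5 called members and the most abundant uncalled member of each list, the genes of largest spread within a group, abundant unchanged genes, YAP and TEAD genes, and the Hox and multiciliated families. Other list members were named after their values were seen. On simulated counts for 17377 genes, 39 of 100 genes changed 2-fold and 95 of 100 changed 4-fold were called, with 1 unchanged gene. Of the 100 genes changed 2-fold, 53 passed by adjusted p, and a call also needs an estimated change of at least 2-fold. In the measured libraries 54.7% of genes were called in either direction, and calls of unchanged genes at such a share were not tested.

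Alternatives were no filter, a 5 CPM minimum, median-ratio scaling, total counts, limma 3.58.1 after quantile normalization, removal of mitochondrial genes, DESeq2 1.42.0, a replicate block, the compared groups alone, 1 entry per symbol, adjusted p alone, and leaving out each library. The plots used matplotlib 3.10.9 under Python 3.11.15, on log2(CPM + 1) with a pseudocount of 1 where so labelled. Promoters came from the RefSeq table (GRCm38.p6). Results of some genes are not reported here.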

Additional observations from a re-analysis of the deposited data

Results flagged for a closer look

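Values of the 4 tumours were searched for a library whose gap to the nearest of the others, divided by the whole range, exceeded the 95% critical value of Dixon's test for 4 samples. Of 236 genes and list sums examined, 12 had such a library, or 5.08%, while chance flags about 1 in 20 (5% of groups). This is about the number that chance gives, and the items overlap, since members lie within the sums. The SVZ group has 3 libraries and was not examined.

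Tumour replicate 3 was the library concerned in most of them. The summed collagen chains were 4189.5 CPM in replicate 3, below 7469 to 7635 CPM in the other tumours, and the summed matricellular genes were 5949.6 CPM in replicate 3, below 8375 to 8796 CPM in the other tumours. Single matrix genes were low there as well: Col12a1 was 511 CPM in replicate 3, below 1036 to 1081 CPM in the other tumours, and the aggrecanase gene Adamts5 was 310.1 CPM in replicate 3, below 577 to 617 CPM in the other tumours. Igfbp5 was 56.8 CPM in replicate 3, below 108 to 117 CPM in the other tumours, and the ligand gene Wnt5a was 51 CPM in replicate 3, below 84.8 to 87.9 CPM in the other tumours. Axl, the receptor kinase gene, was 357 CPM in replicate 3, below 415 to 423 CPM in the other tumours. The Notch target Hes5, near 0 in the tumours, was 0.128 CPM in replicate 3, below 0.184 to 0.186 CPM in the other tumours, which is a few counts. For each of these replicate 3 lay on the same side of every SVZ library as the other tumours did.

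The remaining ones lay in replicates 1 and 2. Pdgfrb was 71.9 CPM in replicate 1, above 54.4 to 56.4 CPM in the other tumours. Rgs5, of pericytes, was 100.04 CPM in replicate 1, above 63.4 to 68.1 CPM in the other tumours, and the neuroblast gene Dcx was 4.78 CPM in replicate 1, below 5.67 to 5.80 CPM in the other tumours. The summed multiciliated genes were 36.9 CPM in replicate 2, below 59.4 to 63.6 CPM in the other tumours, and Rsph1 and Dnaic1 were lowest in the same library.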

How the results depend on the processing

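The call counts stayed within 1.5 times of the 4722 higher and 5296 lower genes in every alternative: 6443 and 6754 with no filter (38279 genes tested), 3810 and 3778 with a 5 CPM minimum, 6957 and 7506 by adjusted p alone, and 4758 to 4960 and 4963 to 5243 with 1 library left out. Total counts alone gave 5963 and 4377, and moved the median log2 fold change of all genes by 0.342. The deviations of same-numbered libraries from their group means correlated at -0.0968, -0.00393 and 0.000586, within the range of other pairs (-0.120 to 0.115). Deviations within a group cancel, so these few values cannot decide whether samples of the same number are paired. In the fit with a replicate block 4721 genes were higher and 5396 lower, Cdh2 lost its call (0.96 on the log2 scale), Foxj1 gained one (-1.06), and the uncalled genes Aqp4 (-0.157) and Gapdh (-0.0489) changed sign. Other changes of sign were of Amotl1 with no filter (0.00542), with total counts (0.206), and with a library left out (-0.196 to 0.119), of Aqp4 with a library left out (-0.0446 to 0.423), and of Cspg4 with total counts (0.0554). The value of mt-Co1 with quantile normalization (0) was set by its rank and does not measure its change. With total counts Dlk1, Erbb4, Rgs5, Igfbp5, Serpine2, Peg3, Sall1 and Sdha were no longer called, and with DESeq2 Six3 was not. 161 of 185 named genes kept direction and call in every alternative. Of 1836 list counts 92 moved by over 1.5 times, mostly counts of a few genes (endothelial, microglial, MYC network, coactivator and nuclear respiratory lists). The cause of these shifts was not tested. Below about 0.1 CPM a library holds under 3 counts, and differences there were not detectable.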

Other observations

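A set of 88 genes had under 3 counts in every SVZ library and at least 5 CPM on average in the tumours, against 1 gene in the converse direction (Gm45104). The genes described in this section were picked after their values were seen. The set held genes of organs other than the brain. Panx3, a channel protein of cartilage and skin, stood at 135, 228, 137 and 134 CPM in the tumours. Gdf6, a BMP-type ligand of joints, stood at 71.9, 76.5, 40.04 and 89.2 CPM, and Krtap1-5, a hair keratin-associated protein, at 64.1, 62, 191 and 44.3 CPM. Lep, which encodes the fat hormone leptin and is also expressed in placenta, stood at 51.3, 74.2, 40.8 and 50.6 CPM, a ratio to the SVZ counts of 1761-fold (exact 95% interval 487 to 14547). Prl3a1, a placental member of the prolactin family, stood at 109, 84.8, 144 and 67.9 CPM, a ratio of 2148-fold (exact 95% interval 735 to 10418). The transcription factor gene Runx3, of lymphocytes, sensory neurons and cartilage, stood at 25.9, 30.7, 15.9 and 37.4 CPM. Nkx2-6, a factor of the pharyngeal endoderm and heart, stood at 36.7, 34.6, 27.2 and 21 CPM and had no count in SVZ, so that it was at least 643-fold higher. Tumour libraries held all of these transcripts, at unequal levels.

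Gene classes differed in their shares of calls. By the RefSeq type of the matching gene, 49.1% of 1021 pseudogenes were called higher and 6.76% lower, and 20.7% of 791 long non-coding RNA genes were higher and 50.7% lower, against 24.5% and 27.9% of 15132 protein-coding genes. Reads of processed pseudogenes and of their parent genes are hard to assign, and the handling of such reads is not given in the sources used here. Calls were spread over the chromosomes, with 21.8% to 29.8% of genes higher and 22.6% to 34.0% lower on each of chromosomes 1 to 19 and X.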
